A study of Mus musculus with 12 samples.

Results

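The effect of deleting part of Gdap1 on gene expression in motoneurons was set against its effect in sciatic nerve, as the knock-out minus wild type difference in motoneurons minus the same difference in nerve. A positive value of this difference of effects means that a transcript stood higher, relative to wild type, in knock-out motoneurons than in knock-out nerve. All 12 of the 12 arrays in the series entered the comparison, sorted by their titles into 4 groups of 3: motoneurons of wild type mice, motoneurons of knock-out mice, nerve of wild type mice and nerve of knock-out mice. Knock-out mice carried a deletion of exon 5 of Gdap1, all mice were untreated and aged 2 months, and the sources used here give neither strain nor sex. Motoneurons were cut out by laser, while nerve was lysed whole, and a different column kit was used to purify the RNA of each. Of each RNA, 20 ng was amplified. Per the design text, RNA was purified from 5 mice and the samples were picked by RNA amount and quality. Whether that number is per group or in all, and which arrays share a mouse, is not given in the sources used here, so arrays may share animals. Every test here treats the 3 arrays of a group as separate samples, and its p-value measures the spread between those arrays. The Gdap1 probe sets were placed there in exons 4 and 6, outside the deletion, so they do not check the genotype labels.

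GDAP1 is a protein of the outer mitochondrial membrane that takes part in mitochondrial fission and in the handling of oxidative stress and calcium. Its mutations cause forms of Charcot-Marie-Tooth disease, a hereditary neuropathy of motor and sensory nerves that can strike the axon, the myelin sheath or both. The cell bodies of motoneurons lie in the spinal cord and brain stem, and their axons run through nerves such as the sciatic nerve, where Schwann cells wrap them in myelin. RNA of a whole nerve therefore comes mostly from Schwann cells, fibroblasts, vessels and immune cells, and in both kinds of sample fewer cells of a type and less RNA per cell cannot be told apart.

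The value distributions were alike within a tissue and shifted between tissues, from which separate normalization was inferred but is not stated by the submitters. Array medians were 6.54 to 6.59 on the log2 scale in motoneurons and 8.29 to 8.40 in nerve. Only differences between genotypes, not levels, are compared between tissues here. Motoneuron markers averaged 11.4 to 11.7 on the 6 motoneuron arrays and 7.43 to 7.84 on the nerve arrays. Wild type motoneuron replicate 3 stood apart from its group: it correlated at 0.987 with the other wild type motoneuron arrays and at 0.989 with the knock-out ones. Wild type nerve replicate 2 did so by more, at 0.985 with its own group and 0.991 with knock-out nerve, and wild type nerve replicate 1 by less, at 0.989 and 0.990. A probe set for 18S ribosomal RNA read 14.64 on wild type motoneuron replicate 3. It read 13.94 and 13.77 on wild type motoneuron replicates 1 and 2 and 14.66 to 14.67 on knock-out motoneuron arrays. The bacterial control bioB, which is added to the labelled sample, averaged 11.06 to 11.27 in wild type and 10.68 to 10.75 in knock-out motoneurons, and 11.45 to 11.72 in wild type and 10.62 to 10.73 in knock-out nerve. Xist, transcribed from the inactive X chromosome of females, was high on 1 wild type and 1 knock-out nerve array and low on 1 knock-out motoneuron array. With Xist as a covariate the averaged effect had 0 calls in place of 4. The part of 18S RNA and bioB in the results was not tested.

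Few genes separated the genotypes in both tissues. The genotypes are called apart for a gene in a tissue where all 3 knock-out values lay above, or all 3 below, the wild type values. Across 18193 genes, each read by its brightest probe set, 4695 were apart in motoneurons (25.8%, 13.9% with the knock-out higher and 11.9% lower). In nerve 1257 genes did so (6.91%, 2.81% higher and 4.09% lower). The genotypes were apart in both tissues and in the same direction for 236 genes (1.3%), of which 114 were higher (0.627%) and 122 lower (0.671%) in the knock-out. They were apart in opposite directions for 74 genes (0.407%). A further 4385 genes (24.1%) were apart in motoneurons while overlapping in nerve, and 947 (5.21%) were apart in nerve while overlapping in motoneurons. Among the 10125 genes above the array median in both tissues, 3515 were apart in motoneurons (34.7%) and 527 in nerve (5.2%), with 165 apart in the same direction in both (1.63%) and 20 in opposite directions (0.198%). Under exact permutation, 3 against 3 arrays without a genotype effect are apart, in either direction, with a probability of 0.1. The shares in nerve did not exceed this, so being apart in nerve does not by itself mark a genotype effect.

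**Figure D1:**
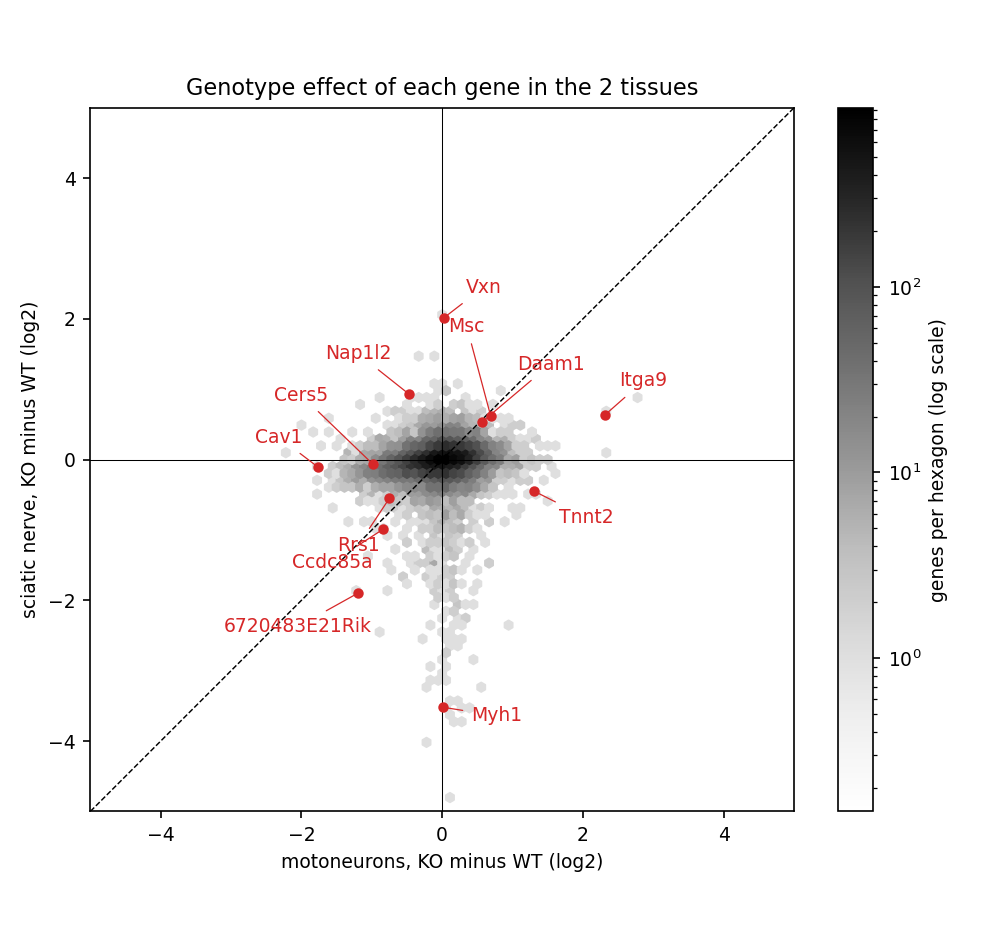
Knock-out minus wild type on the log2 scale in motoneurons (horizontal) against sciatic nerve (vertical), with the number of the 18193 genes per hexagon on a grey log scale and labelled genes in red. Genes on the dashed diagonal differed alike in both tissues; most of the spread runs along the horizontal axis, and a column of genes below 0 in nerve, Myh1 among them, lies near 0 in motoneurons.

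Probe sets of 1 gene often disagreed. Genes named below for the difference of effects or the averaged effect are given by their probe set with the smallest p. It need not be the brightest, so their values are picked ones. Of 9010 genes with more than 1 probe set, 5197 (57.7%) had one whose motoneuron effect had the opposite sign to that of the brightest, and among the 165 genes of this kind chosen for naming, Gdap1 left out, 92 did (55.8%).

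The effects were larger in motoneurons, and the difference of effects was imprecise. The SD of the effect over genes was 0.355 in motoneurons and 0.263 in nerve, and 0.359 and 0.132 among the genes above the median in both. The sign was the same in both tissues for 58.2% of genes and for 63.7% of the brighter ones. As a description across genes, which are not independent, the effects correlated at Pearson's r = 0.121 and Spearman's rho = 0.217 (n = 18193), and at 0.382 and 0.397 among the 10125 brighter genes; without wild type motoneuron replicate 3 the first pair was 0.131 and 0.226. The 95% interval of the difference of effects lay within -1 to 1 for 67.4% of genes and within -0.5 to 0.5 for 14.7%, so for most genes an unequal effect of moderate size could not be detected with 3 arrays per group.

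With limma's test of the difference, adjusted over all 45037 probe sets, 0 passed (0%), with adjusted p values of 0.173 and above, and 3398 were under 0.05 before adjustment (7.54%). Without wild type motoneuron replicate 3, 238 probe sets passed, 132 with a positive and 106 with a negative difference. Without wild type motoneuron replicate 1 or without wild type nerve replicate 2, 2 passed in each case. For the effect averaged over both tissues, 4 probe sets passed (0.00888%), all lower in the knock-out, with 6098 at an unadjusted p under 0.05 (13.5%); without wild type motoneuron replicate 3 there were 2271, 988 higher and 1283 lower. Within motoneurons or nerve alone, limma called 0 probe sets, with 7665 (17%) and 1040 (2.31%) at an unadjusted p under 0.05, and without that array 4646 passed in motoneurons.

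The smallest p of the difference belonged to Cav1, which encodes caveolin 1, the scaffold protein of the membrane pits called caveolae. Its log2 values were 8.09, 8.48 and 8.79 in wild type motoneurons and 6.61, 6.66 and 6.81 in knock-out motoneurons. In nerve it read 14.17, 14.24 and 14.32 in wild type and 14.05, 14.18 and 14.17 in knock-out. The genotypes were thus far apart in motoneurons and overlapped in nerve. The motoneuron effect was -1.76 (SE 0.23, n = 3 per group), the nerve effect -0.11 (SE 0.063), and the difference of effects -1.65 with a 95% interval of -2.13 to -1.18 (adjusted p = 0.173 by limma). It was -1.48 without wild type motoneuron replicate 3 (adjusted p = 0.011) and -1.83 without replicate 1 (adjusted p = 0.0129). With any other array left out the difference did not pass, with an adjusted p of up to 0.776 by limma. The averaged effect of Cav1, -0.94, passed (adjusted p = 0.0298), which for this gene rests on motoneurons. Of other caveolar coat genes, Cav2 and Cavin1, chosen after their values were seen, differed by -0.95 and 0.36 in motoneurons and by -0.16 and -0.03 in nerve, and Cavin3 by 0.58 and -0.03. The list thus held both directions, and the median of the 12 measured caveolae genes was 0.20 in motoneurons and -0.03 in nerve; without wild type motoneuron replicate 3 the first was 0.105. A second probe set of Cav2 put its motoneuron effect at 0.65.

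Cers5 encodes a ceramide synthase, an enzyme of sphingolipid synthesis. It read 11.13, 11.34 and 11.24 in wild type and 10.29, 10.07 and 10.37 in knock-out motoneurons, and 12.98 to 13.01 against 12.83, 12.87 and 13.09 in nerve. The effects were -0.99 and -0.06, and their difference was -0.93 (95% interval -1.25 to -0.61, adjusted p = 0.325 by limma, 0.0342 without wild type motoneuron replicate 3). With any other array left out it did not pass, with an adjusted p of up to 0.82. A dimmer probe set of Cers5 gave a difference of -0.06, so its probe sets disagreed. Idh1, the cytosolic and peroxisomal isocitrate dehydrogenase that makes NADPH, differed by -0.59 in motoneurons and by -0.05 in nerve, and both of its probe sets gave a difference of -0.54 (95% interval of the brighter -0.77 to -0.31, adjusted p = 0.517).

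Another 7 genes named for a negative difference of effects stood lower in knock-out motoneurons with little difference in nerve. The actin regulators Cnn3 and Phactr2 differed by -0.67 and -0.66 in motoneurons and by 0.03 and 0.06 in nerve. For Asap1, which acts on Arf GTPases, the effects were -0.75 and 0.16. Osbp, a carrier of sterols between the endoplasmic reticulum and the Golgi, showed -0.46 and 0.04, Klhl2, an adaptor of a ubiquitin ligase, -0.90 and 0.04, and the nucleic acid binding protein gene Ybx3 -0.61 and -0.04. Ang, which encodes the ribonuclease angiogenin and is listed with amyotrophic lateral sclerosis genes, showed -1.36 and 0.08, although it lay below the array median in motoneurons. In all 7 of these genes the motoneuron arrays of the genotypes did not overlap and the nerve arrays did. None passed the test of the difference with all arrays, the adjusted p being 0.517 for each by limma. Other probe sets gave like differences for Klhl2 (-1.03), Ybx3 (-0.57), Ang (-0.77 and -0.66) and Cnn3 (-0.54 to -0.24), but not for Phactr2 (0.11 and 0.45) and Asap1 (-0.17 and 0.21).

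In the other direction, transcripts higher in knock-out motoneurons and level in nerve included Ptpa, which activates protein phosphatase 2A, with effects of 0.44 and -0.07 (difference 0.51, 95% interval 0.29 to 0.73). Its values were 12.93, 12.89 and 12.81 in wild type and 13.25, 13.33 and 13.37 in knock-out motoneurons, and its other probe sets gave differences of 0.11 and 0.22. Rpp21, a subunit of the tRNA-processing enzyme RNase P, showed 0.51 and -0.05, and the zinc finger gene Zfp764 showed 0.72 and 0.01. Clec7a, a receptor for fungal glucans on myeloid cells, showed 1.1 and 0.02, Rbms2, an RNA-binding protein gene, 0.89 and -0.06, and the zinc finger gene Bnc2 1.58 and -0.21. These last 3 lay below the array median in motoneurons, and the other probe sets of Bnc2 and Rbms2 gave differences of -0.76 to 0.02. The sorting nexin gene Snx13 showed 1.19 and -0.03, against -0.71 to -0.32 for the difference at its other probe sets.

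Some genes leaned opposite ways in the tissues. Tnnt2 encodes cardiac troponin T, a regulator of striated muscle contraction. It read 3.33, 3.26 and 3.49 in wild type and 4.85, 4.59 and 4.58 in knock-out motoneurons, values below the array median, and 9.49, 9.80 and 9.49 against 9.12, 9.41 and 8.91 in nerve. The groups were apart in both tissues, with effects of 1.31 and -0.45 and a difference of 1.76 (95% interval 1.2 to 2.33, adjusted p = 0.205 by limma, 0.0267 without wild type motoneuron replicate 3). With any other array left out the difference did not pass, with an adjusted p of up to 0.776. The other probe sets of Tnnt2 gave differences of 0.72 and 0.91. Pnmal1, a relative of the paraneoplastic Ma antigens, showed 1.09 and -0.20, with a difference of 1.29 (95% interval 0.75 to 1.83) that its second probe set put at 1.16. In nerve Pnmal1 lay below the array median.

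Nap1l2, a histone chaperone gene of neurons, read 13.09, 13.03 and 12.91 in wild type and 12.61, 12.45 and 12.57 in knock-out motoneurons. In nerve it was dim, at 4.60, 4.26 and 4.20 in wild type and 5.50, 4.88 and 5.47 in knock-out. The knock-out was lower on every motoneuron array and higher on every nerve array, with effects of -0.47 and 0.93 and a difference of -1.4 (95% interval -1.98 to -0.81, adjusted p = 0.517 by limma).

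Vxn was the clearest case of a transcript that differed in nerve alone. It encodes vexin, a protein of differentiating neurons. Nerve arrays read 5.62, 5.60 and 5.65 in wild type and 7.39, 8.05 and 7.50 in knock-out, whereas motoneuron arrays read 11.35, 11.16 and 10.74 against 11.30, 10.99 and 11.04. All nerve values of Vxn lay below the array medians. The nerve effect was 2.02 (adjusted p = 0.716 by limma within nerve), the largest positive one of all 18193 genes, and the motoneuron effect was 0.03, with overlapping groups. The difference of effects was -2.0 (95% interval -2.64 to -1.35, adjusted p = 0.205 by limma, 0.015 without wild type motoneuron replicate 3). With any other array left out it did not pass, with an adjusted p of up to 0.785. Vxn lies on chromosome 1 near Gdap1, a stretch described further on.

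**Figure D2:**
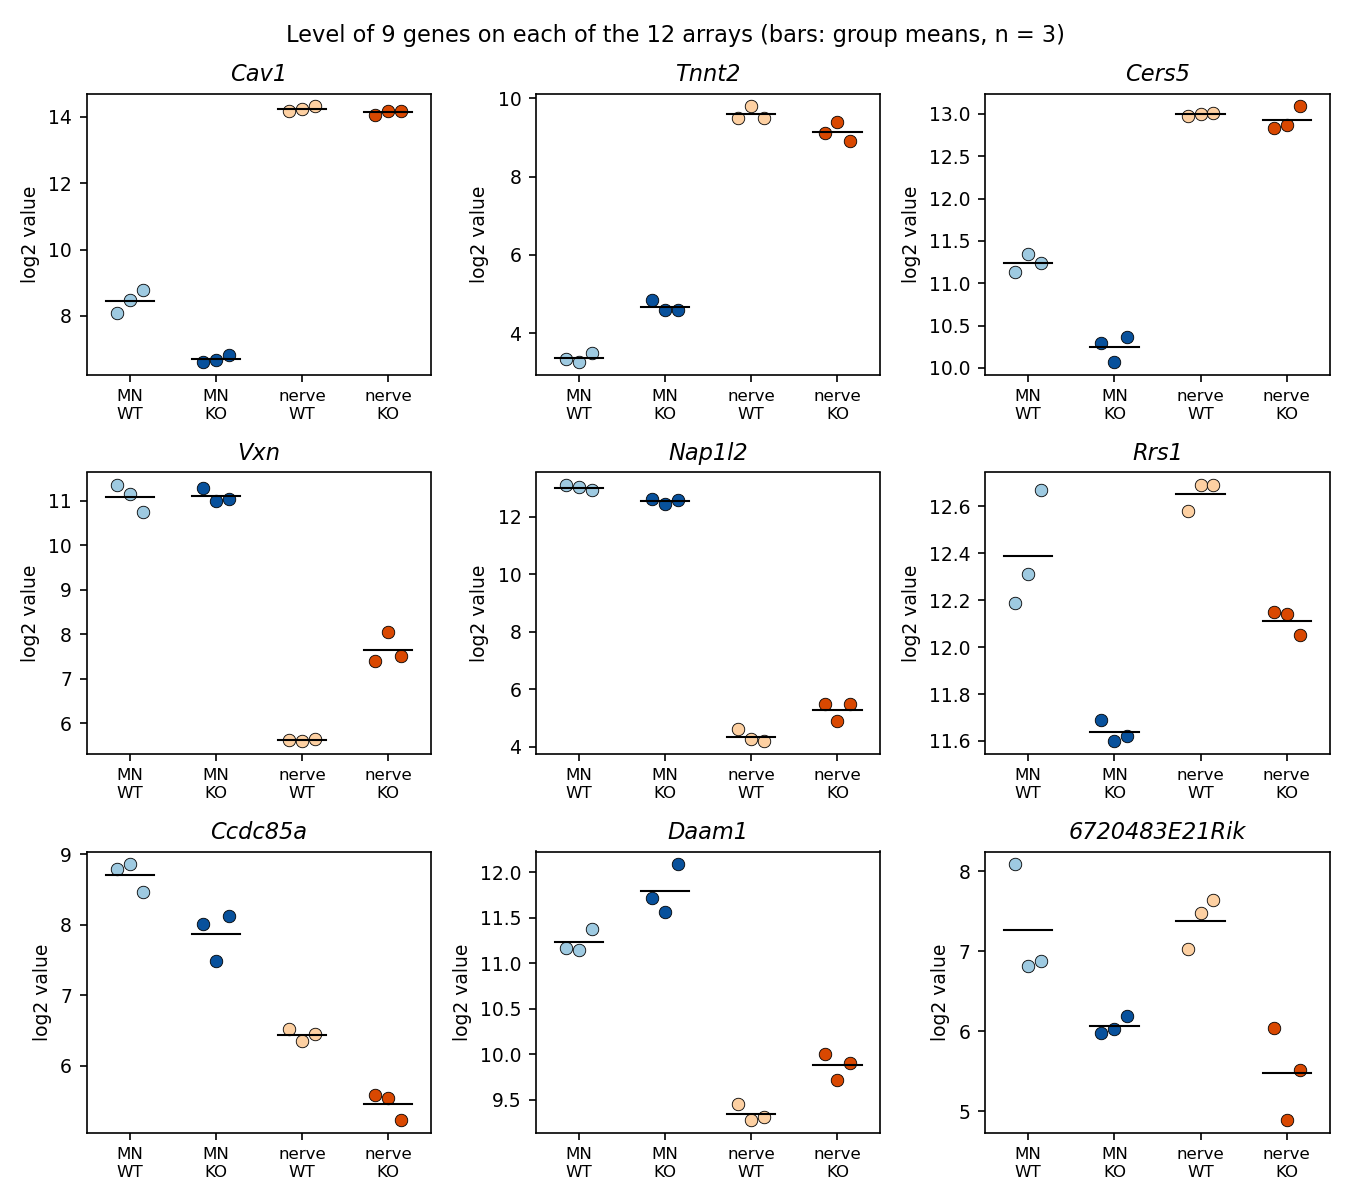
Log2 values of 9 genes on the 12 arrays, with motoneurons in blue (MN), nerve in orange, pale points for wild type and dark points for knock-out, and bars for group means of 3 arrays. Cav1 and Cers5 separate the genotypes in motoneurons alone, Vxn in nerve alone, Tnnt2 and Nap1l2 in opposite directions, and Rrs1, Ccdc85a, Daam1 and 6720483E21Rik in the same direction in both tissues.

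Among transcripts that differed alike, Rrs1, which encodes a factor needed to assemble the large ribosomal subunit, fell in the averaged effect. It read 12.19, 12.31 and 12.67 in wild type and 11.69, 11.60 and 11.62 in knock-out motoneurons. In nerve the values were 12.58, 12.69 and 12.69 in wild type and 12.15, 12.14 and 12.05 in knock-out. Every knock-out array lay below every wild type array of its tissue. The effects were -0.75 and -0.55, their difference -0.21 (95% interval -0.54 to 0.13), and the averaged effect -0.65 (adjusted p = 0.0298 by limma, 0.00267 without wild type motoneuron replicate 3). The average no longer passed when any 1 of 10 of the 12 arrays was left out, with an adjusted p of up to 0.129, and passed without wild type motoneuron replicate 1 or 3. The same 2 arrays were the ones whose removal kept Cav1 past the threshold. A second, dimmer probe set of Rrs1 put the difference of effects at -0.63.

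The other 2 probe sets that passed in the averaged effect have no single gene name here. One, which the platform annotation gives to 3 symbols, read 11.58, 11.87 and 11.43 in wild type and 9.22, 9.42 and 9.68 in knock-out motoneurons, and 12.57, 12.49 and 12.54 against 12.22, 10.94 and 11.02 in nerve. It fell by 1.67 in the averaged effect (adjusted p = 0.0298 by limma), with a difference of effects of -1.05 (95% interval -1.88 to -0.21). The other, with no symbol, read 4.85, 5.30 and 5.32 against 4.00, 4.12 and 4.20 in motoneurons and 6.75, 6.33 and 6.28 against 5.44, 4.81 and 4.98 in nerve, all below the array medians. Its averaged effect was -1.22 (adjusted p = 0.0298 by limma) and its difference of effects 0.33 (95% interval -0.32 to 0.98). With 1 array left out, the first still passed in 2 of 12 cases and the second in 3.

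Below the threshold, several genes named for the averaged effect differed in the same direction in both tissues, and for Daam1 the effects were nearly equal. Daam1, a formin that nucleates actin filaments, read 11.17, 11.15 and 11.38 in wild type and 11.72, 11.57 and 12.09 in knock-out motoneurons, and 9.46, 9.28 and 9.31 against 10.01, 9.72 and 9.91 in nerve. The knock-out was higher on every array of both tissues, by 0.56 and 0.53 (difference 0.03, 95% interval -0.42 to 0.49). The averaged effect of 0.55 missed the threshold (adjusted p = 0.117 by limma, 0.0151 without wild type motoneuron replicate 3). With any other array left out it did not pass, with an adjusted p of up to 0.311. The solute carrier gene Slc22a23 was higher by 0.47 and 0.33 and the kinase gene Prkce (protein kinase C epsilon) by 0.61 and 0.25. Kif3a, a motor subunit of kinesin-2, was higher by 0.52 and 0.19, and the genotypes were apart in both tissues for all 3 genes. The difference of effects was 0.14 for Slc22a23 (95% interval -0.14 to 0.42), 0.36 for Prkce (0.0 to 0.71) and 0.33 for Kif3a (0.03 to 0.62). For Prkce and Kif3a the effect in motoneurons was thus the larger one. Other probe sets ran from -0.30 to 0.25 in motoneurons for Daam1, from -0.33 to 0.57 for Prkce and from -0.24 to 0.35 for Kif3a, so each of these genes had probe sets of both signs. In nerve they ran from -0.06 to 0.30 for Daam1, from -0.29 to 0.22 for Prkce and from 0.03 to 0.09 for Kif3a.

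Ccdc85a, a coiled-coil protein gene, was lower in both tissues, at 8.80, 8.86 and 8.47 against 8.01, 7.48 and 8.12 in motoneurons and 6.52, 6.35 and 6.45 against 5.58, 5.54 and 5.23 in nerve. The effects were -0.84 and -0.99, with a difference of 0.15 (95% interval -0.48 to 0.78), but a second probe set gave a difference of -1.42. In nerve the values of Ccdc85a lay below the array medians. Esyt2, an extended synaptotagmin that tethers the endoplasmic reticulum to the plasma membrane, differed by -1.13 and -0.34. For Fgl2, a fibrinogen-like protein gene whose mean lay below the array median in motoneurons, the effects were -1.32 and -0.24. In both, the genotypes were apart in each tissue, while the effect in motoneurons was the larger one. Vcam1, an adhesion molecule of activated endothelium, showed -1.52 and -0.20, and Cpne1, a calcium-dependent phospholipid binding protein gene, -1.45 and -0.33, with overlap in nerve for both. Itga9, an integrin subunit gene named among the higher ones, showed 2.32 and 0.64 and also overlapped in nerve. Other probe sets put the difference of effects at 0.22 for Esyt2, 0.21 for Fgl2, -0.02 and 0.07 for Vcam1 and -0.07 and 0.57 for Itga9, so for these 4 genes the probe sets disagreed.

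By function, the medians of the 52 gene lists were small and rarely stood apart from 0 in both tissues. The median effect of the list lay within 0.1 of 0 in both tissues for 38 lists, exceeded 0.1 in size in motoneurons for 10 and in nerve for 4, and exceeded it in both with the same sign for 0. The sign of the medians was the same in both tissues for 24 of the 52. Over all genes the medians were 0.019 in motoneurons, -0.002 in nerve and 0.017 for the difference of effects.

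**Figure D3:**
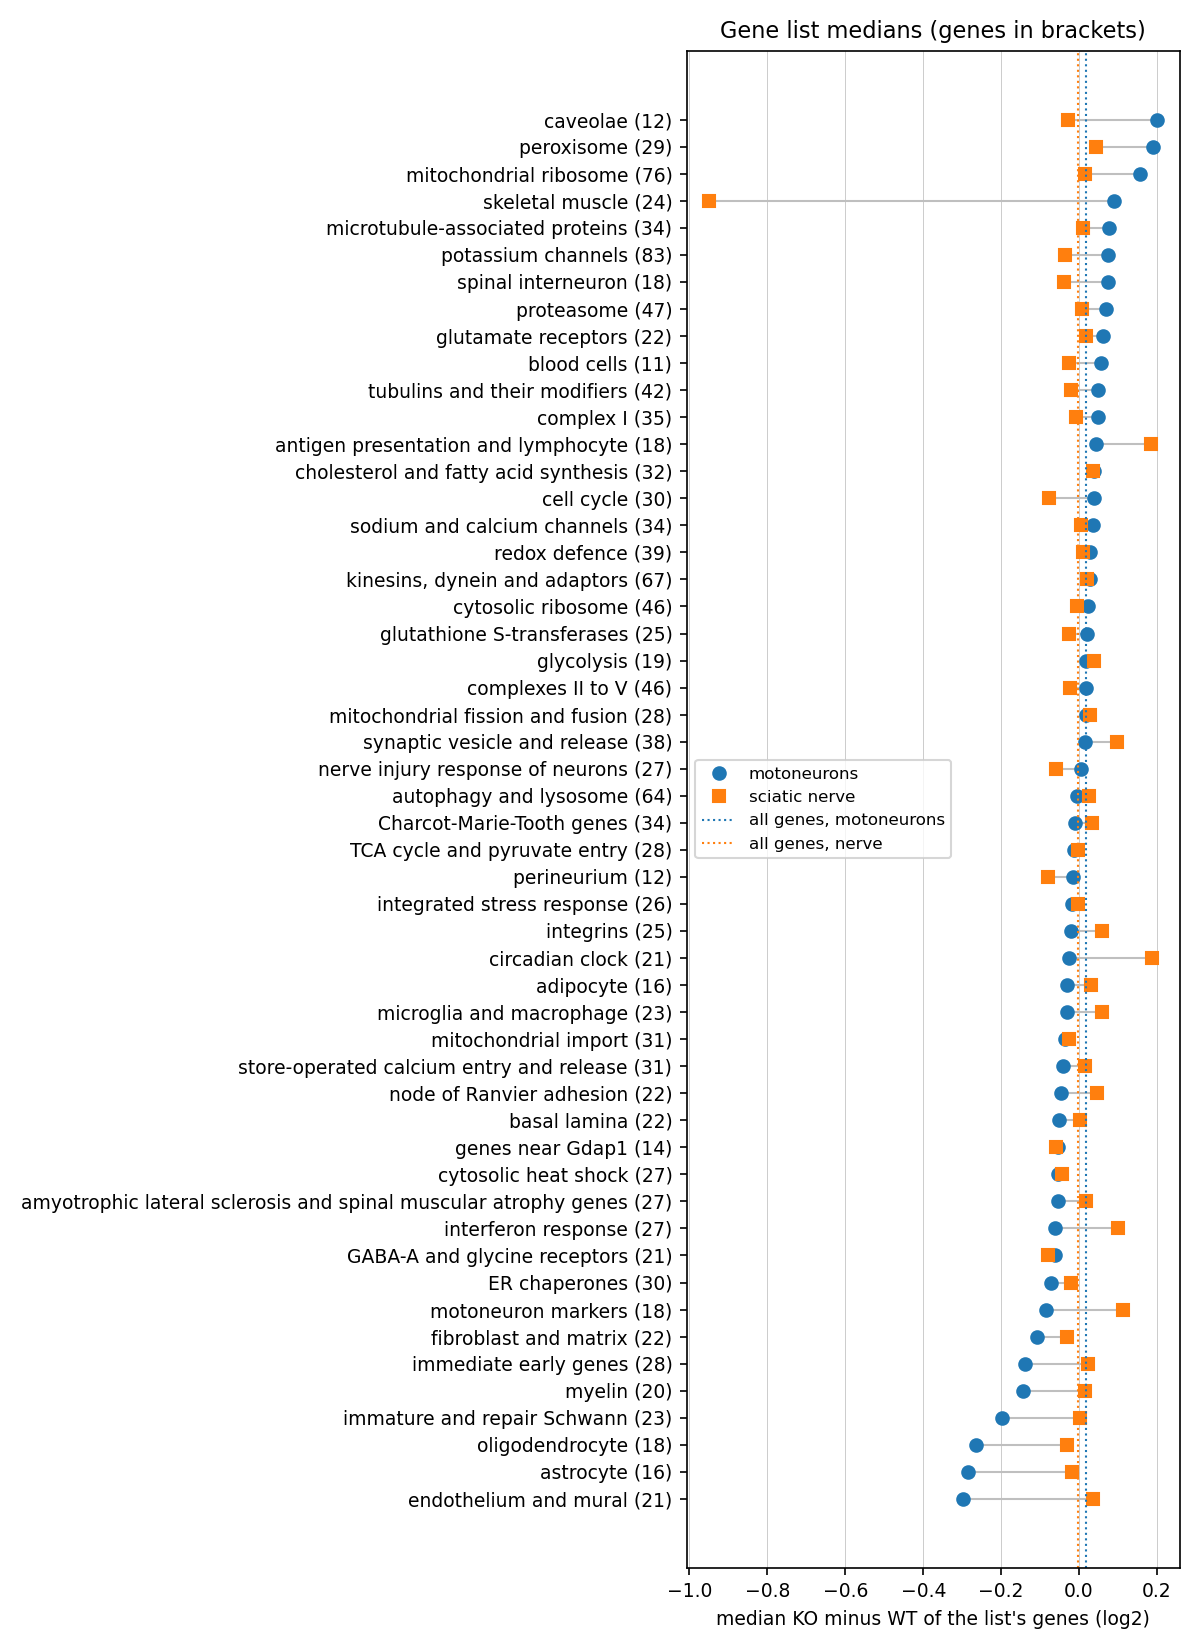
Median knock-out minus wild type value (log2) of each of 52 gene lists in motoneurons (blue circles) and sciatic nerve (orange squares), with the number of measured genes in brackets and dotted lines for all genes. Lists at the bottom, of endothelial, astrocyte and oligodendrocyte genes, have medians of -0.30 to -0.26 in motoneurons and near 0 in nerve, while skeletal muscle stands at -0.95 in nerve alone.

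Genes of the mitochondrial ribosome, which translates the few proteins encoded by mitochondrial DNA, had the broadest one-sided pattern in motoneurons. Of 76 measured, 60 were higher in knock-out motoneurons and 43 in knock-out nerve. The genotypes were apart in motoneurons for 39 in the higher and 2 in the lower direction, beside 13.9% and 11.9% of all genes and 17.9% and 16.8% of the brighter ones, and in nerve for 2 and 1. All 76 lay above the array median in both tissues. The median effect was 0.157 in motoneurons, 0.014 in nerve and 0.117 for the difference, and the last was 0.134 after quantile normalization of all arrays together and 0.112 without wild type motoneuron replicate 3, where the motoneuron median was 0.133. With 1 array left out, the median of the difference ran from 0.07, without knock-out nerve replicate 3, to 0.208, without knock-out nerve replicate 2, and it was 0.08 without wild type nerve replicate 1 and 0.089 with the probe sets of a gene averaged. The motoneuron median ran from 0.133 to 0.170 and the nerve median from -0.058 to 0.061.

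The mean of these 76 genes was 12.19, 12.18 and 12.15 on the wild type and 12.29, 12.27 and 12.31 on the knock-out motoneuron arrays. On the nerve arrays it was 12.33, 12.34 and 12.13 in wild type and 12.21, 12.44 and 12.18 in knock-out. The genotypes were thus apart in motoneurons by a small shift and overlapped in nerve, where the arrays of a group were spread more widely. Mrps24, of the small subunit, differed by 0.31 in motoneurons and by -0.18 in nerve, and Mrpl52 and Mrpl48, of the large subunit, by 0.26 and -0.01 and by 0.23 and -0.02. Mrpl45, Mrpl34 and Mrpl19, chosen after their values were seen, showed 0.40, 0.38 and 0.38 in motoneurons and -0.01, 0.05 and 0.07 in nerve. Mrpl44 went the other way, at -0.48 and -0.10. Other probe sets of Mrpl52 and Mrpl48 ran from -0.05 to 0.59 and from -0.09 to 0.14 in motoneurons. No single member passed the test of the difference.

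The promoters of these genes are shown because they stood higher together. Of the 76, 67 matched a RefSeq promoter (build GRCm38.p6), and the 250 bases before the start were searched on both strands for the ETS motif CCGGAAG. The ETS letters stood in 16 of 67 (23.9%), beside 10.6% of 14452 measured genes with a promoter. The median motoneuron effect was 0.164 in genes with the ETS letters and 0.102 in those without. A motif of the factor NRF1, searched in the same way, stood in 3 of 67 (4.48%), beside 1.25% of the 14452, and here the median was -0.048 with it and 0.157 without. A match describes letters in the window and is not evidence of binding. The windows printed are those of Mrpl52 (chr14:54426659-54426908, plus strand), with 1 ETS match on its complementary strand in capitals, and of Mrps24 (chr11:5707702-5707951, minus strand), which holds no match; both run 5′ to 3′ along the gene.
Mrpl52: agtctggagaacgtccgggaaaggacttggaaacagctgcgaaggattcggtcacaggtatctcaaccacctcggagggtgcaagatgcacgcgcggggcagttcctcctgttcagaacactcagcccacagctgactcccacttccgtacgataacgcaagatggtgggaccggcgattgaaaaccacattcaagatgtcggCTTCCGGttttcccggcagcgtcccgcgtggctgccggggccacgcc
Mrps24: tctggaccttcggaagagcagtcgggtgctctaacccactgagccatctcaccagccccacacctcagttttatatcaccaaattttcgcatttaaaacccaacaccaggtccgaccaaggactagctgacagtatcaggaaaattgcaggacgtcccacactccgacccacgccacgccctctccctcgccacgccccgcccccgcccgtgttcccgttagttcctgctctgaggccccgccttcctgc

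Other protein machines leaned the same way in motoneurons by less. Of 47 proteasome genes, whose products degrade ubiquitinated proteins, 37 were higher in knock-out motoneurons, with 16 apart higher and 3 lower, beside 13.9% and 11.9% of all genes and 17.9% and 16.8% of the brighter ones, and with 0 apart in nerve. Their mean was 12.12 to 12.19 on wild type and 12.23 to 12.26 on knock-out motoneuron arrays, and 12.56 to 12.70 and 12.57 to 12.77 in nerve. The medians were 0.069 and 0.007, the first being 0.114 without wild type motoneuron replicate 3. Psmd9 and Psmd7, chosen after their values were seen, differed by 0.46 and 0.39 in motoneurons and by 0.04 and 0.03 in nerve, while Psma5, a subunit of the core particle, differed by -0.46 and -0.09.

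Complex I, the entry point of the respiratory chain, had a motoneuron median of 0.049 and a nerve median of -0.008, with 12 of 35 genes apart higher and 2 lower in motoneurons, beside the same 13.9% and 11.9% of all genes. Ndufa7 and Ndufa5 differed by 0.28 and 0.18 in motoneurons and by -0.03 each in nerve. The mean of the list overlapped between genotypes in both tissues, at 13.52 to 13.54 against 13.52 to 13.61 in motoneurons. Complexes II to V had medians of 0.018 and -0.022.

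Gene lists for functions close to what GDAP1 does in the cell had medians near 0 in both tissues, although some members differed. The 28 fission and fusion genes had medians of 0.017 and 0.028. Dnm1l, the GTPase that cuts mitochondria, differed by -0.31 and -0.02, Opa1, which fuses inner membranes, by -0.24 and 0.03, and Yme1l1, a protease that processes OPA1, by -0.39 and -0.08. Other probe sets of these genes mostly had the opposite sign. In motoneurons they gave -0.04 to 1.17 for Dnm1l, 0.31 to 0.43 for Opa1 and 0.04 to 0.17 for Yme1l1. Mfn1, a mitofusin of the outer membrane, chosen after its values were seen, was lower in both tissues with the genotypes apart, by -0.20 and -0.15 (difference -0.05, 95% interval -0.31 to 0.21). The 39 redox defence genes had medians of 0.028 and 0.010, with catalase (Cat) at -0.56 and -0.07, Txnip, an inhibitor of thioredoxin, at -0.83 and -0.04, and thioredoxin itself (Txn1) at -0.20 and -0.03. Of the 31 genes of calcium entry and release, Mcur1, a regulator of the mitochondrial calcium uniporter, showed -0.95 and 0.03, and the list medians were -0.041 and 0.016. A second probe set of Mcur1 gave 0.16 and 0.21. In motoneurons 7 calcium genes were apart lower and 5 higher, and 6 and 5 redox genes, beside 11.9% and 13.9% of all genes. The difference had an unadjusted p under 0.05 by limma for 6 redox and 3 calcium genes, all with a negative difference. Over all 18193 genes this held for 894 with a negative and 757 with a positive difference.

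Peroxisomal genes, 29 in number, had a motoneuron median of 0.189 and a nerve median of 0.043, yet the difference had a median of 0.067 that ranged from -0.043 to 0.120 with 1 array left out, while the motoneuron median ran from 0.077 to 0.229. Abcd2, a transporter of very long fatty acids chosen after its values were seen, showed 0.66 and -0.02, and Pex3, needed to form peroxisomal membranes, -0.59 and -0.15, but the other probe sets of Abcd2 gave -0.08 to 0.10 in motoneurons and that of Pex3 gave 0.17. The 34 measured Charcot-Marie-Tooth genes had medians of -0.011 and 0.032. Without wild type motoneuron replicate 3 the first was 0.109, with 21 of 34 higher. Gnb4, a G protein subunit gene, differed by -1.09 in motoneurons and by -0.03 in nerve, and Lmna, which encodes lamin A and C, by 0.64 and 0.04. Other probe sets ran from -0.46 to 0.16 in motoneurons for Gnb4 and from -0.17 to 0.44 for Lmna. Sbf1, which encodes a myotubularin-related protein and was chosen after its values were seen, was apart in both tissues, higher by 0.32 and 0.22.

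Marker lists of astrocytes, oligodendrocytes and vessels had negative motoneuron medians and nerve medians near 0, and that of microglia was near 0 in both tissues. Of 16 astrocyte genes, 13 were lower in motoneurons, with 6 apart lower and 0 higher, beside 11.9% of all genes lower and 16.8% of the brighter ones, and the medians were -0.285 and -0.018. Their mean read 10.89, 10.65 and 10.96 on wild type and 10.64, 10.31 and 10.63 on knock-out motoneuron arrays, so the nearest arrays of the genotypes almost met. Without wild type motoneuron replicate 3 the motoneuron median was -0.206 and that of the difference moved from -0.240 to -0.129. The bicarbonate transporter gene Slc4a4 differed by -0.98 and -0.15 and the glutamate transporter gene Slc1a3 by -0.81 and 0.01, while Glul, which encodes glutamine synthetase, differed by -0.18 and 0.01. Gja1, the gap junction gene of astrocytes, chosen after its values were seen, was apart in both tissues at -0.41 and -0.13. Other probe sets were of both signs in motoneurons for Slc4a4 (-0.34 to 0.57), Slc1a3 (-0.71 to 0.28) and Gja1 (-0.84 to 0.41), and a second one of Glul gave 0.57.

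Of 21 endothelial and mural genes, 16 were lower in knock-out motoneurons, but only 2 were apart lower there, a share no higher than the 11.9% of all genes, and the medians were -0.299 and 0.036. Without wild type motoneuron replicate 3 the motoneuron median was -0.139 and that of the difference -0.162 in place of -0.301. The mean of the list was 7.05 to 7.45 on wild type and 6.86 to 7.01 on knock-out motoneuron arrays, near the array median, and 11.9 to 12.1 in nerve. Cldn5, which seals vessels, differed by -0.30 and 0.04, and Cdh5, the cadherin of endothelium, by -0.40 and 0.04, although a second probe set of Cdh5 gave 0.08 and -0.12. The 23 microglia and macrophage genes had medians of -0.031 and 0.058 with 1 apart lower in motoneurons, and 13 of 23 were higher there without wild type motoneuron replicate 3. Cav1 and Vcam1 are also made by endothelium, and the part of vessel RNA in their motoneuron effects was not tested.

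Oligodendrocyte genes had medians of -0.264 and -0.032 (18 measured) and myelin genes -0.144 and 0.014 (20 measured). With 1 array left out the motoneuron medians ran from -0.345 to -0.133 and from -0.244 to -0.012, the last without knock-out replicate 2. For oligodendrocyte genes the median of the difference was -0.259, with 8 genes positive and 10 negative. It was -0.085 with the probe sets of a gene averaged and -0.096 among genes above the median in both tissues. Olig1, a regulator of oligodendrocytes, was apart in opposite directions, at -0.48 in motoneurons and 0.41 in nerve, with a difference of -0.89 (95% interval -1.39 to -0.39). Olig2 showed -0.46 and 0.25, and both Olig1 and Olig2 lay below the array median in nerve. Mal, a proteolipid of compact myelin, showed -0.59 and -0.01. Ncmap, a protein of peripheral myelin, went the other way, at 1.0 and 0.03. Genes of immature and repair Schwann cells had medians of -0.197 and 0.003.

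Immediate early genes, which respond fast to activity and stress, followed the same one-sided pattern. Of 28, 20 were lower in knock-out motoneurons and 11 in nerve, with medians of -0.139 and 0.022. The motoneuron median ran from -0.200 to -0.013 with 1 array left out, the last without knock-out replicate 2, and that of the nerve from -0.094 to 0.083. Klf6, a transcription factor gene, differed by -1.18 and -0.09 (difference -1.1, 95% interval -1.69 to -0.51) and Fos by -0.80 and -0.01. The cell stress lists had small medians, at -0.019 and -0.003 for the integrated stress response and -0.073 and -0.021 for chaperones of the endoplasmic reticulum. For cytosolic heat shock genes they were -0.054 and -0.043. In motoneurons 9 of 30 chaperone genes were apart lower and 4 higher, and 8 and 5 of 27 heat shock genes. The shares over all genes were 11.9% and 13.9%, and 16.8% and 17.9% over the brighter ones. The heat shock mean was 13.02 to 13.11 on wild type and 12.95 to 12.99 on knock-out motoneuron arrays, and the genotypes overlapped in nerve. Calr, of the chaperone list, differed by -0.33 in motoneurons, where its other probe sets gave -0.69 to -0.31, and overlapped in nerve. Atf4, the main transcription factor of the integrated stress response, showed 0.16 and -0.06, and Sesn2, one of its targets, 0.60 and -0.15. Dnajc3, an inhibitor of the kinase PERK, showed -0.75 and -0.02. Other probe sets gave motoneuron effects of -1.37 to 0.57 for Klf6, -0.28 to -0.20 for Atf4 and -0.46 to 0.52 for Dnajc3.

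**Figure D4:**
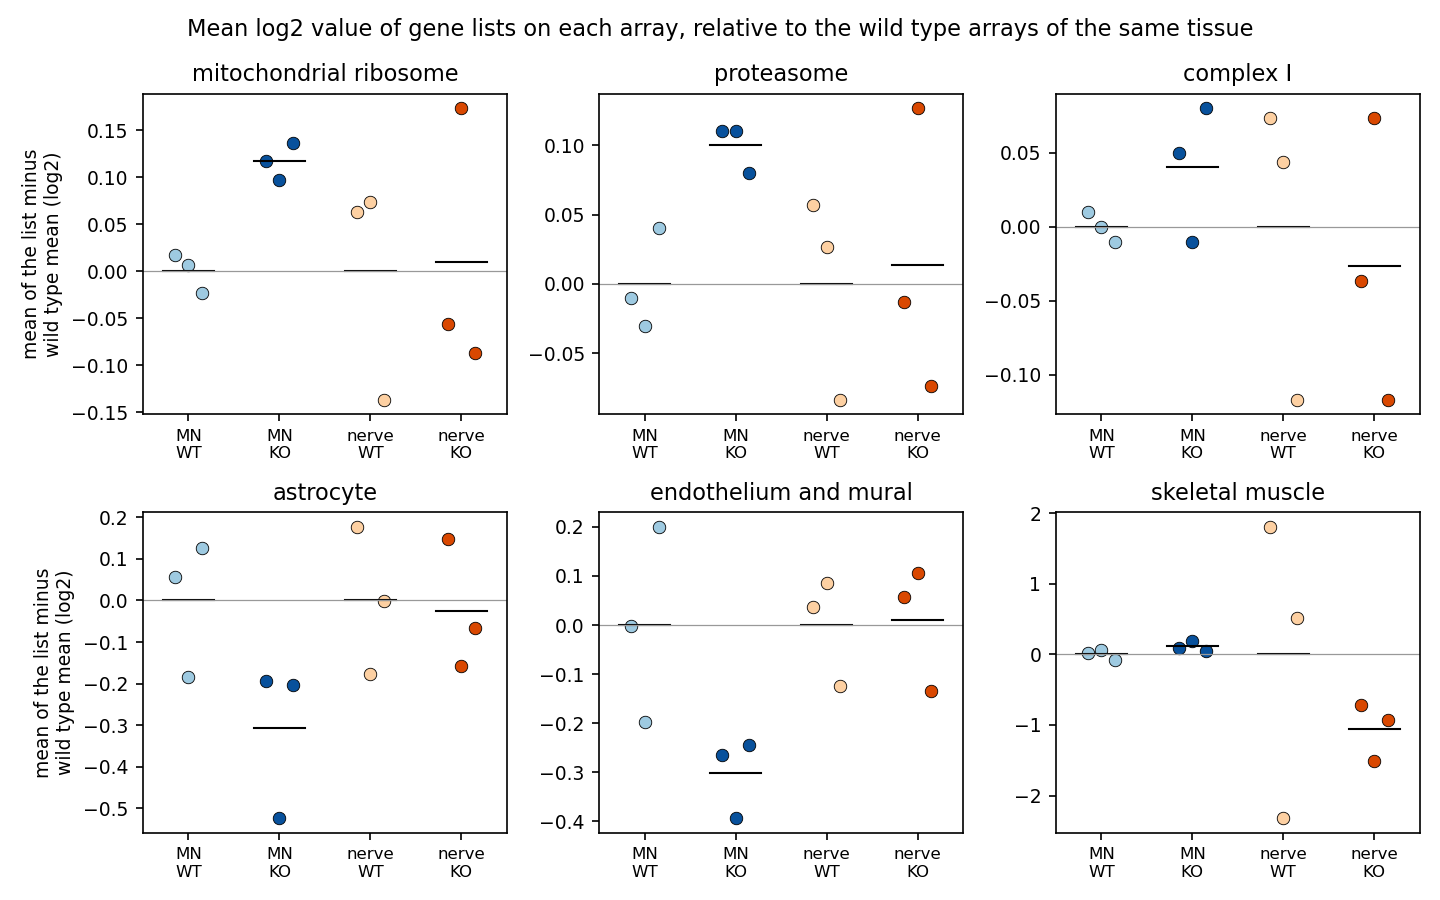
Mean log2 value of 6 gene lists on each array, minus the mean of the wild type arrays of the same tissue, with 1 point per array, bars for group means of 3 arrays and a scale of its own for each panel. Knock-out motoneurons lie above wild type for the mitochondrial ribosome and the proteasome and below it for astrocyte and endothelial genes, and the nerve groups overlap in all 6 panels.

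A nerve median over 0.1 in size was found for 4 lists, those of skeletal muscle, motoneuron markers, antigen presentation and lymphocytes, and the circadian clock. Skeletal muscle genes had a nerve median of -0.949 and a motoneuron median of 0.091, and 22 of 24 had a positive difference of effects. Their mean was 12.70, 8.57 and 11.40 on wild type and 10.17, 9.38 and 9.96 on knock-out nerve arrays, so the groups overlapped and wild type replicates 1 and 3 were high. Without wild type nerve replicate 1 the nerve median was -0.024 and the median difference 0.204. Myh1, a myosin heavy chain of fast muscle fibres, read 12.66, 7.92 and 11.50 in wild type and 7.37, 7.19 and 6.95 in knock-out nerve. The part of muscle RNA on these arrays in other nerve effects, Tnnt2 included, was not tested.

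The 18 genes of antigen presentation and lymphocytes had a nerve median of 0.185, with 15 higher, and a motoneuron median of 0.043. With 1 array left out the nerve median ran from 0.047, without knock-out replicate 2, to 0.404, without knock-out replicate 3. Synaptic vesicle genes leaned higher in knock-out nerve, 31 of 38, with medians of 0.097 in nerve and 0.016 in motoneurons. Without wild type nerve replicate 1 the nerve median was 0.032, with 12 of 38 lower. Their mean was 9.30, 9.42 and 9.50 on wild type and 9.56, 9.37 and 9.57 on knock-out nerve arrays, which overlapped. Syn2, which encodes a synapsin, was apart in both tissues in opposite directions, at -0.06 and 0.62, with a difference of -0.69 (95% interval -1.2 to -0.17) that its other probe sets put at -0.24 to 0.63. Motoneuron markers showed 13 of 18 lower in knock-out motoneurons and 13 of 18 higher in knock-out nerve, with medians of -0.084 and 0.113 and array means that overlapped in both tissues. Without wild type nerve replicate 2 the nerve median was 0.035. Chodl, a membrane protein gene of fast motoneurons, had the smallest p of the list and went the other way: it was below the array median in nerve and apart lower there, by -1.45, and differed by -0.09 in motoneurons (difference 1.35, 95% interval 0.28 to 2.43, adjusted p = 0.629 by limma). Ret, a receptor for neurotrophic factors, differed by -0.35 and 0.46, and Nefl, the light neurofilament gene, by -0.06 and 0.32. Interferon response genes had medians of -0.061 and 0.10, and the nerve median had no settled sign, at -0.02 with 16 of 27 lower without wild type nerve replicate 1 and at 0.393 without replicate 2. B2m, the light chain of MHC class I, showed -0.43 and 0.03.

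Some genes of the circadian clock, picked after their values were seen, leaned the same way in both tissues although their list did not. In the clock, BMAL1 (gene Arntl) and CLOCK bind E-box sequences and switch on genes such as Dbp, Ciart, Nr1d1 and Tef, some of which in turn repress Arntl. Arntl read 8.52, 8.81 and 8.41 in wild type and 8.21, 8.12 and 7.81 in knock-out motoneurons, and 10.23, 10.31 and 9.78 against 9.46, 9.99 and 9.49 in nerve. The effects were -0.54 and -0.46, with a difference of -0.08 (95% interval -0.72 to 0.55), apart in motoneurons and overlapping in nerve. Its second probe set gave -0.07 and 0.34. Dbp read 9.96, 10.42 and 10.23 against 10.87, 10.58 and 10.75 in motoneurons and 13.61, 13.28 and 14.02 against 14.11, 13.82 and 14.11 in nerve, with effects of 0.53 and 0.38.

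Nr1d1, which encodes the repressor REV-ERB alpha, was apart in both tissues: 9.95, 9.92 and 9.63 against 10.03, 10.24 and 10.01 in motoneurons, and 12.19, 12.14 and 12.34 against 12.51, 12.53 and 12.40 in nerve. Both effects were 0.26. Ciart showed 0.56 and 0.67 and Tef 0.31 and 0.19, while Clock was at -0.53 and -0.20. In motoneurons 5 of the 21 measured clock genes were apart higher and 3 lower, beside 13.9% and 11.9% of all genes. In nerve 1 was apart higher, namely Nr1d1, and 0 were apart lower, beside 2.81% and 4.09% of all genes. The genotypes therefore overlapped in nerve for Dbp, Ciart, Tef and Clock. None of these passed in the averaged effect, with adjusted p values from limma of 0.193 for Arntl, 0.167 for Dbp and 0.219 for Nr1d1. Per2, a core repressor, leaned opposite ways at -1.14 and 0.80, and Per1 and Per3 differed by -0.03 and 0.41 and by -0.27 and 0.28. Over the 21 measured clock genes the medians were -0.026 and 0.186, the first being 0.114 without wild type motoneuron replicate 3 and the second 0.08 without knock-out nerve replicate 3. Other probe sets of Clock gave motoneuron effects of 0.00 to 0.07 and those of Tef -0.09 to -0.05. The sources used here do not give the hour of sampling.

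The E-box CACGTG, which reads the same on both strands, stood in the 250 bases before the start of 5 of 18 clock genes with a RefSeq promoter (27.8%), beside 7.56% of the 14452 genes. The windows of Ciart (chr3:95882229-95882478, minus strand), with 3 matches, and Tef (chr15:81802423-81802672, plus strand), with 1, are shown with the E-box in capitals. Both genes were picked for printing and had a higher mean in the knock-out in both tissues, with overlap in nerve. The other clock genes with an E-box there were Bhlhe41, Cry1 and Per1. A link between the E-box and the genotype effect was not tested. Dbp and Nr1d1 held no E-box there.
Ciart: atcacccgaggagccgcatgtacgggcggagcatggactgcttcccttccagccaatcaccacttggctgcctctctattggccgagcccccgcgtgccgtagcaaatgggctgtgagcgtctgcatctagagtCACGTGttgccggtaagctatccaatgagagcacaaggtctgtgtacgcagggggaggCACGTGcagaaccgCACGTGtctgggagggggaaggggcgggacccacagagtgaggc
Tef: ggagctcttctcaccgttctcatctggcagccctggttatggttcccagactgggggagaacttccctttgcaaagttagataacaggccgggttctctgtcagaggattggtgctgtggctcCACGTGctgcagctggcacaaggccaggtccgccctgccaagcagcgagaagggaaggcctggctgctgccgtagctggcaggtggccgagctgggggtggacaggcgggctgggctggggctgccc

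Position near Gdap1 on chromosome 1 was examined after Rrs1 and Vxn were seen to lie there, and Rrs1 is itself counted among the genes below. Gene order was taken from RefSeq (GRCm38.p6), with no distances. Of the 39 measured genes within 20 measured genes of Gdap1 on either side, 3 were apart in both tissues in the same direction (7.69%), and of the next 40, 4 were (10%). The share was 0 of 55 in the next band, from 41 to 80, and 2 of 79 (2.53%) from 81 to 160. Over all genes it was 1.3%, or 236 genes. Chromosome 1 as a whole held 15 of these among 1057 genes (1.42%), which placed it 11th by this share. Most genes that differed alike therefore lay elsewhere. Genes apart in opposite directions were 0 within 160 places.

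The 7 genes were Prdm14, Msc and 6720483E21Rik in the inner band and Sntg1, Rrs1, Vcpip1 and Bag2 in the outer one. Msc, a transcription factor gene of muscle precursors, read 7.06, 6.98 and 6.84 in wild type and 7.88, 7.31 and 7.76 in knock-out motoneurons, and 8.02, 7.83 and 7.41 against 8.33, 8.25 and 8.53 in nerve. The effects were 0.69 and 0.62 (difference 0.07, 95% interval -0.57 to 0.71). The transcript 6720483E21Rik read 8.09, 6.82 and 6.88 against 5.98, 6.03 and 6.19 in motoneurons and 7.03, 7.48 and 7.64 against 6.04, 4.89 and 5.52 in nerve. It differed by -1.2 and -1.9, and its average of -1.55 missed the threshold (adjusted p = 0.0921 by limma).

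Prdm14 was higher by 0.41 and 0.67 and Sntg1 by 0.40 and 0.51. Vcpip1, a deubiquitinase gene, differed by -0.43 and -0.25, and Bag2, which encodes a co-chaperone of HSP70, by -0.99 and -0.45. The direction was therefore mixed, with 3 higher and 4 lower. Close neighbours of Gdap1 in the list of 40 RefSeq genes around it, 14 of them measured, had medians of -0.054 and -0.059; the nearby Jph1, which encodes a junctophilin, differed by -0.78 and -0.72 with overlap in nerve, and Ube2w, an E2 enzyme gene, by -0.76 and -0.20. A second probe set put Jph1 at 0.22 and -0.28 and Sntg1 at -1.78 and 0.06.

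**Figure D5:**
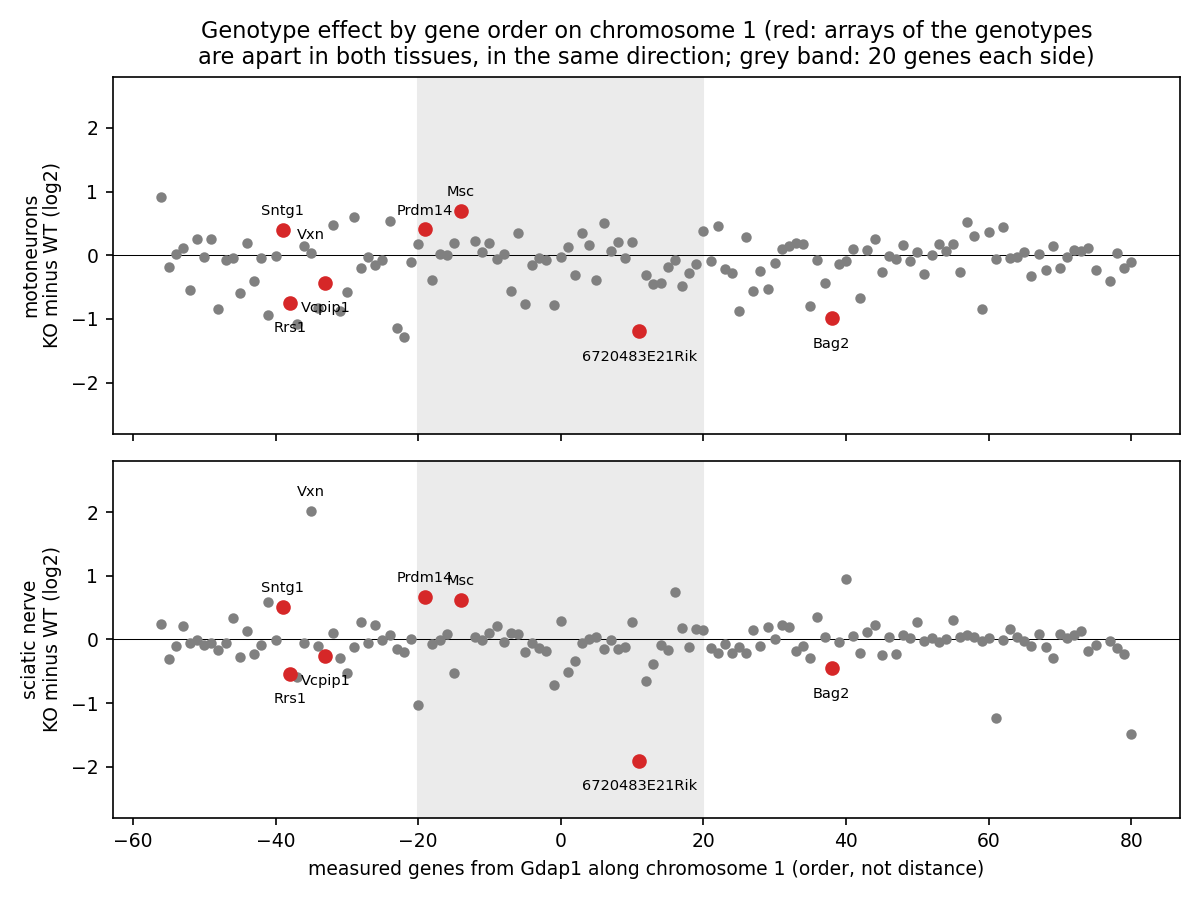
Knock-out minus wild type (log2) of genes in order along chromosome 1 around Gdap1, at 0, in motoneurons (top) and sciatic nerve (bottom), counted in measured genes and not in distance, with a grey band for 20 genes on each side. Red points mark the 7 genes whose genotypes were apart in both tissues in the same direction, and Vxn stands high in nerve alone.

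Gdap1 itself showed no common effect outside its deleted exon. Its 4 probe sets gave differences of effects of -0.31, 0.61, -0.06 and 0.39, and only the second had an interval that left out 0 (0.07 to 1.16), with 9.09, 8.89 and 9.21 in wild type and 9.88, 9.62 and 9.80 in knock-out motoneurons as against 5.10 to 5.62 in nerve of both genotypes. Its paralog Gdap1l1 was higher in both tissues with the genotypes apart, by 0.34 and 0.19, at its brighter probe set (difference 0.16, 95% interval -0.23 to 0.55), and by 0.21 and 0.04 at the other.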

How the data were processed

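RNA was measured on 12 Affymetrix 3′ expression arrays. The deposited log2 values per probe set were made by the authors with Affymetrix Expression Console 1.1, per the submitters' processing notes. How probes were summarized and background was corrected is not given in the sources used here. Precision is limited by the number of arrays, which have no depth in reads. Of 45101 probe sets, 64 controls were left out and 45037 tested; 34945 had 1 symbol in the platform annotation, 932 several and 9160 none, and 34741 symbols matched RefSeq (GRCm38.p6), which also gave gene order and promoters. For counts over genes and for the lists, a gene was read by its brightest probe set (18193 genes, 9010 with several). Genes named for the difference or the average were read by their probe set with the smallest p, which need not be the brightest.

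The 4 group means of all arrays were fitted with lmFit and eBayes (with a mean trend) of limma 3.58.1 under R 4.3.3, for the difference of the genotype effects and for their average, and each tissue alone over its 6 arrays, with two-sided tests and p-values adjusted by Benjamini-Hochberg, called at 0.05. The script was tested on simulated data. Exact permutation of 3 against 3 arrays cannot give a p below 0.1. Alternatives covered scaling, dim probe sets, the variance trend, array and tissue weights, the replicate number, Xist, the Gapdh 3′ to 5′ ratio and each array left out.

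Named genes are Gdap1 and Gdap1l1, the 12 genes with the smallest p of the difference in each direction and the 10 for the average among bright probe sets, up to 3 members of each list by p of the difference, and genes near Gdap1. The comparison, the 52 lists and these rules were chosen with earlier results of these data known, and the lists were not tested. Python 3.11.15 and its matplotlib 3.10.9 drew the figures.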

Additional observations from a re-analysis of the deposited data

Results flagged for a closer look

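8 of the named genes differed in opposite directions in the tissues, every knock-out array lying on one side of the wild type arrays in motoneurons and on the other side in nerve. Tnnt2, a troponin gene, had a difference of effects of 1.76 (1.31 in motoneurons and -0.45 in nerve, adjusted p = 0.205 by limma). For Pnmal1 it was 1.29 (1.09 and -0.20, adjusted p = 0.517). Mrps24, a mitochondrial ribosomal protein gene, had 0.49 (0.31 and -0.18, adjusted p = 0.528), and Nap1l2, a neuronal histone chaperone gene, -1.4 (-0.47 and 0.93, adjusted p = 0.517). Olig1, a regulator of oligodendrocytes, had -0.89 (-0.48 and 0.41, adjusted p = 0.57), and Syn2, a synapsin gene, -0.69 (-0.06 and 0.62, adjusted p = 0.621). Grik4, a kainate receptor gene, had 0.70 (0.44 and -0.26, adjusted p = 0.605), and Kcnn1, a potassium channel gene, 0.69 (0.38 and -0.31, adjusted p = 0.583). None of the 8 passed the test of the difference itself with all arrays. Over all 18193 genes, 74 were apart in opposite directions (0.407%). Named genes were largely chosen by a small p of the difference, a choice that favours effects of opposite sign. In nerve 6.91% of genes were apart, no more than the probability of 0.1 under exact permutation. Being apart in opposite directions thus does not by itself mark a genotype effect in these 8.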

How the results depend on the processing

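For the difference of effects, limma called 0 probe sets under every alternative that kept all arrays, and 0 to 238 with 1 array left out. For the averaged effect the 4 calls became 8 with centred arrays, 43 among probe sets above the median in both tissues, 1200 with array weights, and 0 without a mean trend, with Xist or with the Gapdh ratio as a covariate, and 0 to 2271 with 1 array left out. Motoneurons alone had 0 calls, but 343 among brighter probe sets, 2929 with array weights, 828 in 1 fit of all 12 arrays and 0 to 4646 with 1 array left out; nerve alone had 1, Vxn, in the fit of 12 arrays. The highest leave-one-out counts were all those without wild type motoneuron replicate 3. The replicate numbers did not pair the samples: deviations of same-numbered arrays correlated at -0.0789 to 0.305 within a tissue (6 pairs) and at -0.0619 to 0.0501 across tissues (12 pairs). With the replicate number as a block, the average had 1 call and the difference 0, with 3508 at an unadjusted p under 0.05; with the block nested in tissue both had 0. The causes of these shifts were not tested. Of 998 values of named genes under alternatives, 881 kept their direction and side of the threshold, 58 no longer passed, 59 passed newly and 0 changed sign. Of 848 list medians of the difference, 52 moved by more than the spread between replicates and 127 changed sign, so medians near 0 have no settled direction. Probe sets below the array median in a tissue, such as Tnnt2 in motoneurons and Nap1l2, Vxn, Olig1 and Pnmal1 in nerve, lie where signal limits the size of a difference.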
